A study of Mus musculus with 2 samples.

Results

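The voltage-gated calcium channel, voltage-gated sodium channel and Hcn pacemaker channel genes were followed in mouse embryonic intestine. The members were all protein-coding genes whose mouse gene symbol begins with Cacna, Cacnb, Cacng or Cacna2d, names a numbered sodium channel alpha or beta gene (Scn), or names a numbered Hcn gene. This rule gave 44 genes of 21474 protein-coding genes, and all 44 were present in both gene tables. Total RNA was sequenced from the intestine of B6NCrl embryos at embryonic day 14.5 as 2 libraries, which form 1 group with no treatment and no mutant. The labels describe each sample as the whole organ of 1 pup, collected on day 17 of the month for replicate 1 and on day 15 for replicate 2. They also give both the same donor record and describe the sex as a pool of males and females, so the 2 libraries measure spread between samples and hold no contrast between conditions. Each library started from 10 ng of RNA longer than 200 nucleotides.

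A voltage-gated calcium channel is built on an alpha1 subunit that forms the pore and senses voltage, and the alpha1 gene sets the current type: L, P/Q, N, R or T. L, P/Q, N and R channels are assembled with an intracellular beta subunit and an extracellular alpha2delta subunit, which bring the pore to the membrane and tune its gating, while T channels open at low voltage and can work without them. Sodium channel alpha subunits carry the upstroke of the action potential and are joined by single-pass beta subunits. Hcn channels open on hyperpolarisation and carry a pacemaker current. In the gut wall these genes are known from smooth muscle, from the interstitial cells of Cajal that pace contraction, from enteric neurons and from hormone-secreting epithelial cells.

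Replicates 1 and 2 held 32938592 and 32371363 estimated counts in genes, of which the members took 10643 and 9991, or 0.0323% and 0.0309%. Levels are given as TPM, a transcript abundance scaled to a fixed total and corrected for transcript length, which can be compared between genes. The tissue label matched its markers, since 8 of 8 smooth muscle genes, 7 of 7 epithelial genes, 10 of 10 enteric neuron genes and 3 of 3 genes of the interstitial cells of Cajal reached a TPM of 1 in both libraries. The libraries stood apart in pancreatic markers. The 7 exocrine genes summed to 8.18 TPM in replicate 1 and 899 in replicate 2, and 10 islet genes to 16.8 and 268. Most of the islet sum in replicate 1 was from Neurog3, Chga and Chgb, at 6.57, 5.10 and 3.34 TPM. Ctrb1, Prss1, Ptf1a, Ins1 and Ins2 had 0 counts in replicate 1. Skeletal muscle markers summed to 12.4 and 14.9 TPM and heart muscle markers to 29.1 and 38.4. Only 3 of 12 skeletal and 3 of 7 heart muscle genes reached a TPM of 1 in both libraries. Most of the skeletal sum was from Mylpf, at 7.28 and 8.64 TPM, and most of the heart sum from Myl7, at 18.06 and 26.1. The median skeletal muscle gene stood at 0.335 and 0.27 TPM and the median heart muscle gene at 0.49 and 0.28.

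With detection set at a TPM of at least 1 in both libraries, 17 of the 44 members, or 38.6%, were detected, against 61.3% of all protein-coding genes. The median member stood at 0.68 TPM in replicate 1 and 0.56 in replicate 2, and the median protein-coding gene at 4.82 and 4.87. A further 3 members passed in 1 library only, among them Scn2a and Scn9a in replicate 1, and 24 were below 1 in both. In bulk tissue, few cells with a gene and little RNA of it per cell cannot be told apart.

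**Figure D1:**
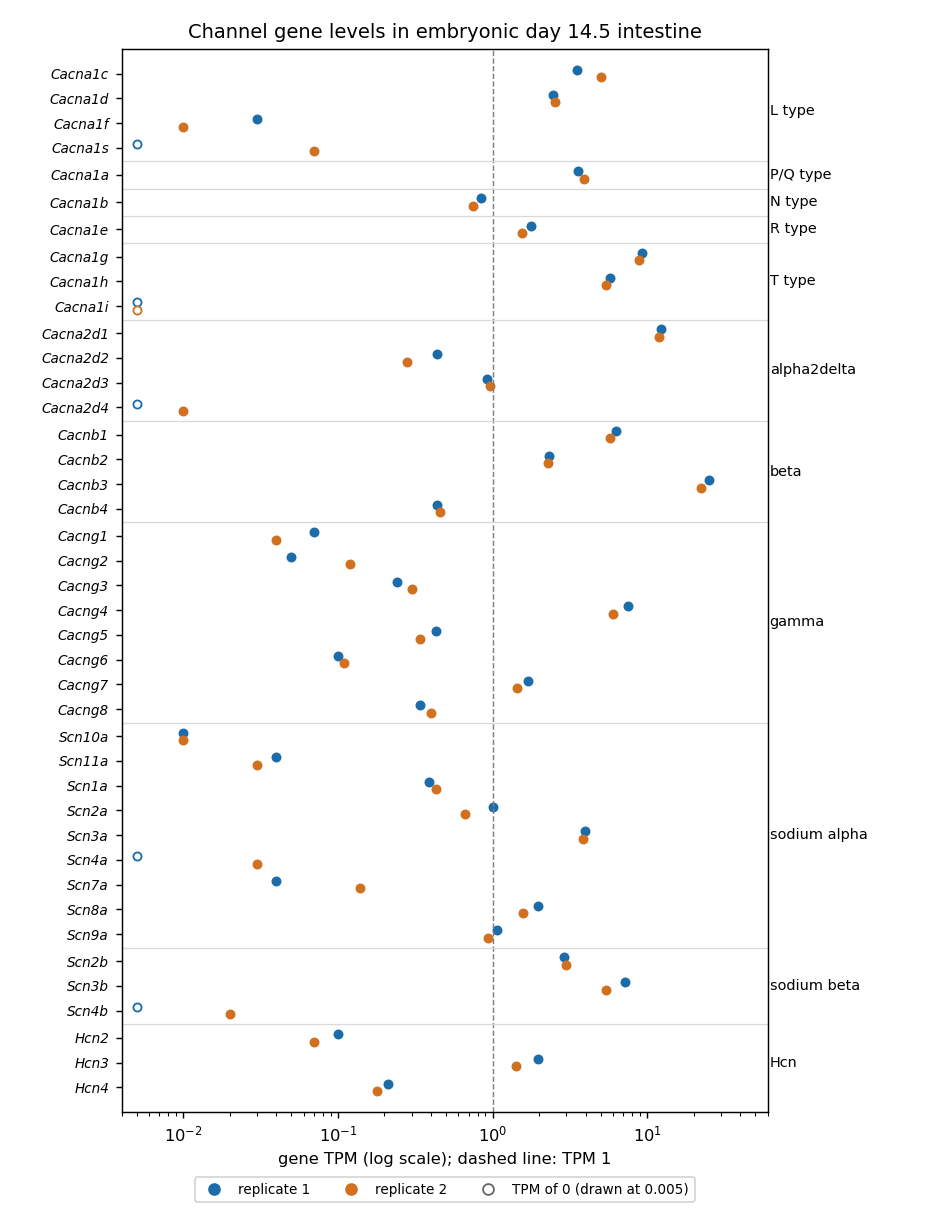
TPM (log axis) of 41 of the 44 members in each library, grouped by subunit class, with open circles for a value of 0. Cacnb3 was highest at 25.08 and 22.45 TPM, and 17 members lie to the right of the dashed line at 1 TPM in both libraries.

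Among the subunit classes the beta subunits had the highest summed level, 32.5 ± 2.21 TPM (SD, n = 2, as for each class sum). They were followed by T-type alpha1 at 14.6 ± 0.54, alpha2delta at 13.5 ± 0.33 and sodium channel beta at 10.6 ± 0.44. Next came gamma at 9.60 ± 1.19, sodium channel alpha at 8.54 ± 0.68 and L-type alpha1 at 6.84 ± 1.17. The lowest sums were those of P/Q at 3.74 ± 0.25, Hcn at 2.19 ± 0.40, R at 1.66 ± 0.17 and N at 0.80 ± 0.06. In gene TPM, sodium channel beta, at 10.89 and 10.27, was above gamma, at 10.44 and 8.76, within each library. Gamma was likewise above sodium channel alpha, at 9.02 and 8.06, within each library. The values of both pairs overlapped when compared between the libraries, and those of the other neighbours in this order did not. This order is that of gene TPM and changed in part on the levels given next.

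The deposited TPM of a gene adds up all of its annotated transcripts, and short transcripts gain much TPM from few reads. For that reason 2 further levels are given below, both chosen after the values were seen. The full-length level sums only protein-coding transcripts whose coding sequence is at least 50% as long as the longest of the gene. The fixed-length level divides all counts of the gene by its longest protein-coding transcript. On the full-length level 12 members were detected, and on the fixed-length level 13. Of the 17 detected members, 6 had over 90% of their TPM in full-length transcripts in both libraries, and 4 had under 50% in both: Cacna1a, Cacna1g, Cacnb2 and Scn8a. The class sums of most pore subunits were lower on this level, with T-type at 7.78 full-length TPM, L-type at 4.67, sodium channel alpha at 4.97 and P/Q at 0.51. The alpha2delta and gamma sums were 13.4 and 9.53, close to their gene TPM. Full-length gamma, at 10.3 and 8.76, was above sodium channel beta, at 9.48 and 9.46, in replicate 1 and below it in replicate 2. At fixed length this pair had the same order, at 10.3 and 8.49 against 9.00 and 9.16. Full-length sodium channel alpha, at 5.30 and 4.64, was above L-type, at 4.59 and 4.75, in replicate 1 and below it in replicate 2.

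**Figure D2:**
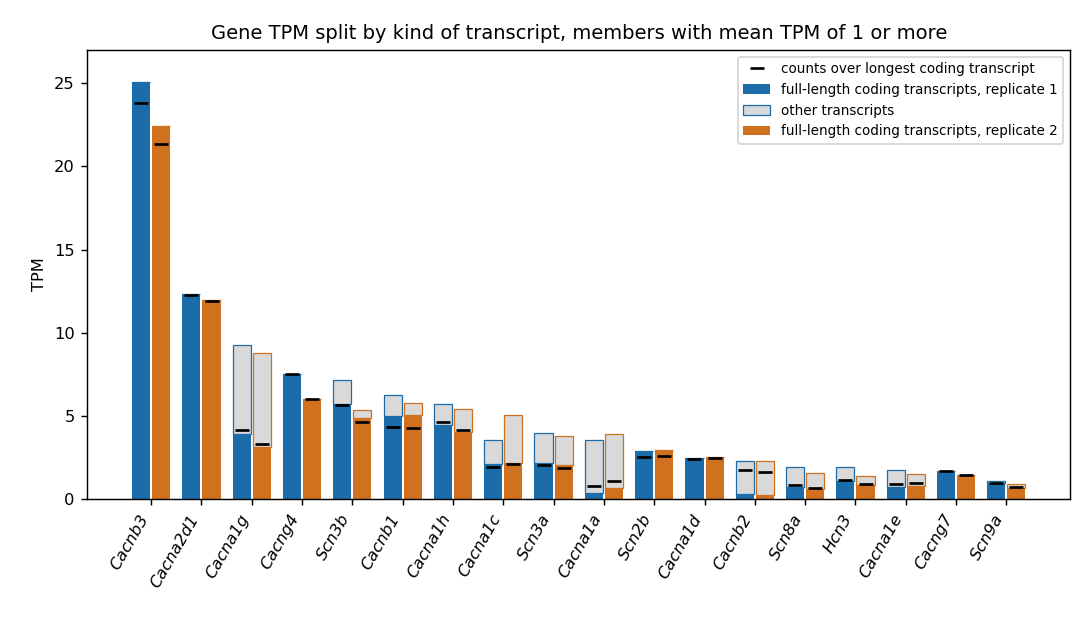
TPM of 18 of the 19 members with mean TPM of 1 or more in each library, with the coloured part from full-length coding transcripts, the grey part from other transcripts and the black tick at the fixed-length level. Cacnb3, Cacna2d1 and Cacng4 are coloured throughout, whereas Cacna1a at 3.56 and 3.91 TPM held only 0.37 and 0.65 in full-length transcripts.

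The T-type genes held the largest share of alpha1 TPM, 55.1% in replicate 1 and 50.6% in replicate 2. L-type genes held 22.1% and 27.3%, and the P/Q, N and R genes together 22.7% and 22.1%. On the full-length level T-type held 56.5% and 51.1%, L-type 30.9% and 33.9%, and the P/Q, N and R genes 12.7% and 15.0%. T-type thus led on both levels in both libraries. L-type was above the P/Q, N and R genes in both libraries on the full-length level, and on the fixed-length level with 27.9% and 31.3% against 16.1% and 18.0%, whereas in gene TPM the order changed between the libraries.

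Cacna1g (ENSMUSG00000020866.13, chromosome 11, 94408391 to 94474198, GRCm38), which encodes the T-type pore Cav3.1, was the highest alpha1 gene at 9.25 TPM (deposited interval 7.47 to 11.5, 797 counts) in replicate 1 and 8.79 (6.94 to 11.0, 651 counts) in replicate 2. Its full-length transcripts held 3.91 and 3.15 TPM, which is 42.3% and 35.8% of the gene's TPM but 90.5% and 90.3% of its counts. The remainder came from processed transcripts without a coding sequence, with 0.10 and 0.03 TPM in Cacna1g-216 of 4878 bases and the rest in shorter ones. The highest of these, Cacna1g-213, is 434 bases long and had 2.07 and 3.67 TPM from 16.1 and 28.9 counts. Cacna1h (ENSMUSG00000024112.12, chromosome 17, 25374285 to 25433783), the Cav3.2 gene, stood at 5.73 (5.65 to 8.22, 875 counts) and 5.42 TPM (5.20 to 7.86, 796 counts), of which 4.48 and 4.01 were full-length. The order of these T-type genes therefore depended on the level used: Cacna1g was higher in gene TPM and Cacna1h in full-length TPM, in both libraries. Cacna1i, the Cav3.3 gene, had 0 counts in both libraries, and 3 counts would be 0.0434 and 0.0429 TPM. Its deposited intervals, 0.0945 to 1.33 and 0.105 to 1.33, lay above these values, so its upper limit depends on the measure used.

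Cacna1c encodes Cav1.2, the L-type channel known to admit the calcium that contracts gut smooth muscle. It stood at 3.53 TPM in replicate 1 and 5.05 in replicate 2, and its deposited intervals, 3.21 to 4.41 and 4.42 to 6.01, did not overlap. Its counts of 596 and 642 gave a ratio of 1.096 (95% interval 0.979 to 1.23), and its full-length level was 2.11 and 2.15 TPM. The higher TPM of replicate 2 thus lay in transcripts other than the full-length ones. The leading one was Cacna1c-223, a processed transcript of 2374 bases with 0.77 and 1.39 TPM. The 8 smooth muscle markers summed to 3454 and 3227 TPM.

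Cacna1d, the Cav1.3 gene, which opens at lower voltage than Cav1.2 and is used in pacing and secretory cells, stood at 2.45 and 2.54 TPM (497 and 523 counts). All of its TPM was in full-length transcripts, so that on this level it was the higher L-type gene, at 53.4% and 53.5% of the class. The L-type genes of retina and skeletal muscle had few counts. Cacna1f had 0.03 and 0.01 TPM from 4 and 1 counts, and Cacna1s had 0 counts in replicate 1 and 8 in replicate 2, or 0.07 TPM.

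The alpha1 genes of presynaptic and dendritic calcium entry in neurons were low once short transcripts were set aside. Cacna1a, the P/Q-type Cav2.1 gene, had 3.56 and 3.91 TPM, but full-length transcripts held 10.4% and 16.6% of that and 46.1% and 59.8% of its counts. Its leading transcript was Cacna1a-207, a retained-intron transcript of 1153 bases with 1.59 and 1.39 TPM. Cacna1e, the R-type Cav2.3 gene, had 1.78 and 1.54 TPM with 0.72 and 0.81 full-length, and another retained-intron transcript, Cacna1e-204, added 0.77 and 0.54. Cacna1b, the N-type Cav2.2 gene, had 0.84 and 0.75 TPM with 0.79 and 0.65 full-length. On the full-length level these genes lay between 0.37 and 0.81 TPM, with Cacna1e above Cacna1a in both libraries and Cacna1b first in replicate 1 and level with Cacna1a in replicate 2. The 10 enteric neuron markers summed to 473 and 443 TPM.

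Some channel genes carry a pair of similar neighbouring exons of equal length, of which a channel transcript takes 1. In the annotation 4 alpha1 genes, Cacna1a, Cacna1b, Cacna1c and Cacna1d, and several sodium channel genes of the members had such a pair. In Cacna1c and Cacna1d the pair is 104 bases long and encodes the last membrane segment of the first repeat, part of the pore lining. The copies are shown because annotated transcripts with each of them had TPM in both libraries. They are written 5′ to 3′ on the gene's strand, from GENCODE M21 transcripts on GRCm38, with capitals at the bases where the copies of a gene differ. The Cacna1c copies lie at chr6:118742265-118742368 and chr6:118741871-118741974 and the Cacna1d copies at chr14:30171956-30172059 and chr14:30171296-30171399, all on the minus strand.
Cacna1c upstream copy: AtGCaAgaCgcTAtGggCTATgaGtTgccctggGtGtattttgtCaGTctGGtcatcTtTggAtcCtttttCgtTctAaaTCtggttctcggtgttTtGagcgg
Cacna1c downstream copy: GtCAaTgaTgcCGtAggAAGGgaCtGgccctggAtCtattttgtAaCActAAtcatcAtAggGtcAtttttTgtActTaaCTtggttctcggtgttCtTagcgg
Cacna1d upstream copy: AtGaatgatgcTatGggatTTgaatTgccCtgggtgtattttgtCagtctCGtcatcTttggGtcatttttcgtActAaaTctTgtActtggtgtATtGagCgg
Cacna1d downstream copy: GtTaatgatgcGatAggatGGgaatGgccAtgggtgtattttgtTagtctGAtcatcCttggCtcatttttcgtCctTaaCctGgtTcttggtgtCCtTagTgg

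The Cacna1c copies were identical at 72 of 104 bases and those of Cacna1d at 82. Transcripts with the upstream copy of Cacna1c summed to 1.21 and 1.08 TPM and those with the downstream copy to 0.91 and 1.08, so the upstream share was 57.1% and 50%. Such shares are of whole-transcript TPM, and reads on the exons themselves were not counted. All upstream TPM of Cacna1c came from Cacna1c-207 of 13162 bases, while the leading downstream transcript, Cacna1c-216, is 7338 bases long. For Cacna1d the upstream copy had 0.89 and 1.22 TPM and the downstream copy 1.56 and 1.32, an upstream share of 36.3% and 48.0%. The intervals of the 2 Cacna1d transcripts overlapped in both libraries, 0.484 to 1.45 against 0.907 to 1.95 in replicate 1 and 0.750 to 1.78 against 0.689 to 1.75 in replicate 2, so neither copy was resolved as the higher. Both Cacna1d transcripts have another length in GENCODE M21 than in the deposited tables. In Cacna1a and Cacna1b the pair is 97 bases long and lies at the start of the intracellular tail. Cacna1b had 177 and 145 counts in transcripts with the downstream copy and 0 in those with the upstream copy, which occurs only in Cacna1b-210, a transcript of 332 bases. The interval of that transcript reached 0.537 and 0.534 TPM and overlapped that of the leading downstream transcript, 0.0727 to 0.688 and 0.0415 to 0.585. Cacna1a had 0.37 and 0.65 TPM with the upstream copy and 0.16 and 0 with the downstream copy, which occurs only in a processed transcript of 549 bases.

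**Figure D3:**
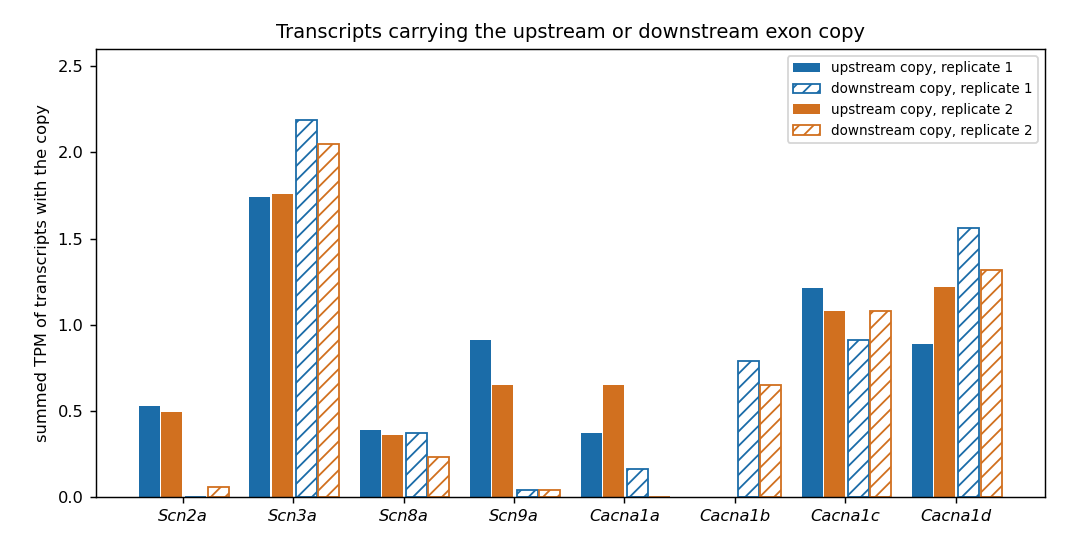
Summed TPM of the transcripts that carry the upstream (solid) or the downstream copy (hatched) of a paired exon in 8 genes, in each library. Scn9a TPM lies nearly all in transcripts with the upstream copy, at 0.91 and 0.65 TPM against 0.04. Cacna1b has 0 TPM upstream, where the copy is annotated only in a transcript of 332 bases. Cacna1c and Cacna1d have TPM for both copies. Values belong to whole transcripts, and reads on the exons themselves were not counted.

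Cacna2d1 and Cacnb3 were the highest auxiliary subunit genes. Cacna2d1 (ENSMUSG00000040118.11, chromosome 5, 15934691 to 16374511) encodes the alpha2delta-1 subunit, the binding site of gabapentin, and stood at 12.34 (11.6 to 12.7, 2099 counts) and 11.98 TPM (11.3 to 12.5, 2060 counts). It made up 90.1% and 90.5% of alpha2delta TPM, all of it in full-length transcripts. Cacna2d3 followed at 0.92 and 0.97, Cacna2d2 had 0.44 and 0.28, and Cacna2d4 had 0 and 0.01.

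Among the differences between Cacna2d1 transcripts are 3 short in-frame segments of coding sequence, shown because the 2 leading transcripts each hold 1 of them. The segments are in capitals with 15 bases of the neighbouring exons in lower case on either side, 5′ to 3′ on the plus strand (GENCODE M21, GRCm38), and lie at chr5:16322539-16322595, chr5:16326312-16326326 and chr5:16341990-16342010.
Cacna2d1 segment A: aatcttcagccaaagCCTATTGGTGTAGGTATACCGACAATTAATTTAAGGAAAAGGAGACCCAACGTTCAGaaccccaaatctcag
Cacna2d1 segment B: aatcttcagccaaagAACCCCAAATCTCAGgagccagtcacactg
Cacna2d1 segment C: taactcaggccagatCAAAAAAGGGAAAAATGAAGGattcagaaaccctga

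The 57-base segment A was in 2.35% and 0% of Cacna2d1 TPM. The 15-base segment B was in 66.0% and 45.0%, and the 21-base segment C in 41.5% and 55.6%. Cacna2d1-202, with segment B but not A or C, held 6.57 and 5.32 TPM, and Cacna2d1-206, with segment C but not A or B, held 4.19 and 6.58. Cacna2d1-205, at 0.36 and 0 TPM, has the same segments as Cacna2d1-202. Its coding sequence is 3273 bases against 3252, so the transcripts also differ outside these segments. Cacna2d1-202 was the higher in replicate 1 and Cacna2d1-206 in replicate 2, but the deposited intervals overlapped in both, 3.56 to 7.23 against 2.40 to 5.01 and 2.38 to 6.21 against 3.65 to 6.70. The files therefore did not resolve which of these forms was the more abundant.

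Cacnb3 (ENSMUSG00000003352.9, chromosome 15, 98630840 to 98644529), the beta3 subunit gene, was the highest member. It had 25.08 TPM (23.2 to 25.7, 1503 counts) in replicate 1 and 22.45 (20.8 to 23.1, 1364 counts) in replicate 2, intervals that did not overlap. It held 73.6% and 72.5% of beta subunit TPM. Cacnb1 (ENSMUSG00000020882.13, chromosome 11, 98001508 to 98023034), whose product also belongs to the skeletal muscle channel, had 6.26 (5.58 to 7.36, 333 counts) and 5.78 TPM (5.11 to 6.78, 332 counts). Both genes lay mostly in full-length transcripts, which held all TPM of Cacnb3 and 5.01 and 5.07 TPM of Cacnb1. Cacnb2, the main beta gene of heart, had 2.31 and 2.27 TPM of which only 0.33 and 0.27 were full-length. In this gene the counts themselves lay elsewhere: full-length transcripts had 18.4% and 16.9% of them, and the retained-intron transcript Cacnb2-204 led with 1.13 and 0.73 TPM. Cacnb4 had 0.44 and 0.46 TPM.

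The gamma family holds Cacng1, the gamma subunit gene of the skeletal muscle calcium channel, and its relative Cacng6. The other 6 genes are better known as auxiliary subunits of AMPA-type glutamate receptors. Cacng4 (ENSMUSG00000020723.3, chromosome 11, 107732357 to 107794557), 1 of the latter, was the highest at 7.51 (6.87 to 8.57, 593 counts) and 6.02 TPM (5.49 to 7.26, 481 counts), 71.9% and 68.7% of the class. Cacng7, of the same receptor group, had 1.70 and 1.43 TPM. The other 6 genes lay between 0.04 and 0.43 TPM, with Cacng5 and Cacng8 the highest of them and Cacng1 at 0.07 and 0.04. Cacng4 lies between Cacng1 and Cacng5 in a cluster of 212 kb on chromosome 11 (107703218 to 107915055). Of the 8.01 and 6.40 TPM of that cluster, neither neighbour supplied more than 0.43.

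Scn3a, known as the fetal neuronal sodium channel Nav1.3, was the highest sodium channel alpha gene at 3.96 and 3.82 TPM (456 and 419 counts), with 2.19 and 2.05 TPM full-length. Scn8a, the Nav1.6 gene of adult axon initial segments, followed at 1.96 and 1.58 TPM, but only 0.76 and 0.59 were full-length. Most of the rest was Scn8a-202, a coding transcript of 1072 bases with 1.19 and 0.99 TPM from 26.96 and 22.67 counts. Scn9a, the Nav1.7 gene of sensory and autonomic neurons, had 1.07 and 0.93 TPM with 0.95 and 0.69 full-length, and Scn2a, the Nav1.2 gene, 1.01 and 0.66 with 0.53 and 0.49. On the full-length level Scn3a was the only sodium channel alpha gene above 1 TPM, and Scn9a stood above Scn8a in both libraries, the reverse of their order in gene TPM.

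Other sodium channel alpha genes were lower. Scn1a, the Nav1.1 gene, had 0.39 and 0.43 TPM. Scn7a, whose product senses sodium concentration and is expressed in glia, had 0.04 and 0.14. The nociceptor genes were near the limit of counting: Scn11a (Nav1.9) had 0.04 and 0.03 TPM from 5 and 4 counts, and Scn10a (Nav1.8) 0.01 and 0.01 from 2 counts each. Scn4a, the skeletal muscle channel, had 0 counts in replicate 1 and 5 in replicate 2, or 0.03 TPM. Of 7 enteric glia markers 5 were detected, with sums of 94.0 and 90.6 TPM.

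Scn3a, Scn2a, Scn1a, Scn9a and Scn7a lie in this order within 1328 kb of chromosome 2 (65457118 to 66784914), and only Scn3a of the 5 was detected. Neighbours in this cluster thus differed in level, from 3.96 and 3.82 TPM for Scn3a to 0.04 and 0.14 for Scn7a.

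In several sodium channel alpha genes the annotation held a pair of 92-base exons that encode part of the voltage sensor of the first domain. The upstream copy is known as the neonatal and the downstream as the adult form. The copies are alike between genes, so reads within these exons could be shared between genes by the quantification.

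Scn9a transcripts with the upstream copy had 0.91 and 0.65 TPM against 0.04 and 0.04 with the downstream copy. The intervals of the leading transcripts, 0.511 to 0.872 against 0.00141 to 0.155 in replicate 1 and 0.338 to 0.639 against 0.00191 to 0.122 in replicate 2, did not overlap. These values belong to whole transcripts, and reads on the exons themselves were not counted. The downstream copy occurs only in Scn9a-207 of 7497 bases, whereas the leading upstream transcript, Scn9a-202, is 9840 bases long. Reads outside the exon pair thus entered both values, and the choice of exon in Scn9a was not resolved. Scn2a had 0.53 and 0.49 TPM with the upstream copy and 0 and 0.06 with the downstream copy, which GENCODE M21 places only in Scn2a-204. That transcript was quantified as a fragment of 463 bases and has another length in M21. Whether the quantified fragment holds the downstream copy is therefore not known. The intervals of the leading transcripts overlapped, so the copies of Scn2a were not resolved. Scn8a was split, with 0.39 and 0.36 TPM upstream and 0.37 and 0.23 downstream and overlapping intervals. In Scn3a the downstream copy had 2.19 and 2.05 TPM from 442 and 407 counts. Its upstream copy had 1.74 and 1.76 TPM, but this came from 10.7 and 11.0 counts in Scn3a-203, a fragment of 365 bases and the only annotated transcript with that copy. For Scn3a the choice of exon is thus tied to the annotation, because no full-length transcript with the upstream copy was there to receive reads.

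Among the sodium channel beta genes, Scn3b (ENSMUSG00000049281.11, chromosome 9, 40269217 to 40291618), the beta3 subunit gene of immature neurons, was the highest at 7.15 (6.75 to 8.81, 579 counts) and 5.38 TPM (5.26 to 6.95, 483 counts). Scn2b had 2.92 and 2.97 TPM. Scn4b, within 36.4 kb of Scn2b on chromosome 9, had 0 and 2 counts.

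Hcn3 was the only Hcn gene above 1 TPM, at 1.96 and 1.41 (107 and 85 counts), with 1.09 and 0.87 full-length. The remainder was the retained-intron transcript Hcn3-202 of 533 bases, with 0.88 and 0.54 TPM from 8.87 and 5.48 counts. Hcn4, the main sinus node channel, had 0.21 and 0.18 TPM (18 and 16 counts) and Hcn2 had 0.10 and 0.07 (7 and 5 counts). Hcn2 was below Hcn4 in each library.

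Between the libraries, none of the 7 members with mean TPM of at least 5 differed by the rule used, which asked for a difference of at least 1 in log2(TPM + 1) and intervals that did not overlap. That rule was met by 0.495% of the 11324 genes at this level. By intervals alone, 3 of the 19 members with mean TPM of at least 1 were apart, among them Cacna1c and Cacnb3, against 21% of all genes at that level. Over all members Scn7a was added, for 4 of 44 against 7.99% of all genes.

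On counts adjusted for depth, 34 members had at least 5 counts in both libraries. The 95% counting interval of the ratio of replicate 2 to replicate 1 lay above 1 for 3 of them, among them Cacna1a and Scn7a, against 17.1% of all genes. It lay below 1 for 6 of them, Cacna1g, Cacnb3, Cacng4, Scn3b, Scn8a and Scn9a, against 19.6%. These intervals cover counting error only, and the shares near or below the background give no sign that the members differed more than other genes. Scn7a had the largest ratio, 3.49 (1.46 to 9.59) from 7 and 24 counts, and Cacna1a had 1.38 (1.11 to 1.72) from 147 and 199 counts. Scn3b fell lowest among the 7 highest members, by 0.41 in log2 TPM, just past the 2.5 percentile of genes with mean TPM from 5 to 50, which was -0.41. Pancreatic exocrine markers summed to 8.18 and 899 TPM, islet markers to 16.8 and 268 and blood markers to 8058 and 11463. Their part in the higher Scn7a of replicate 2 was not tested.

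**Figure D4:**
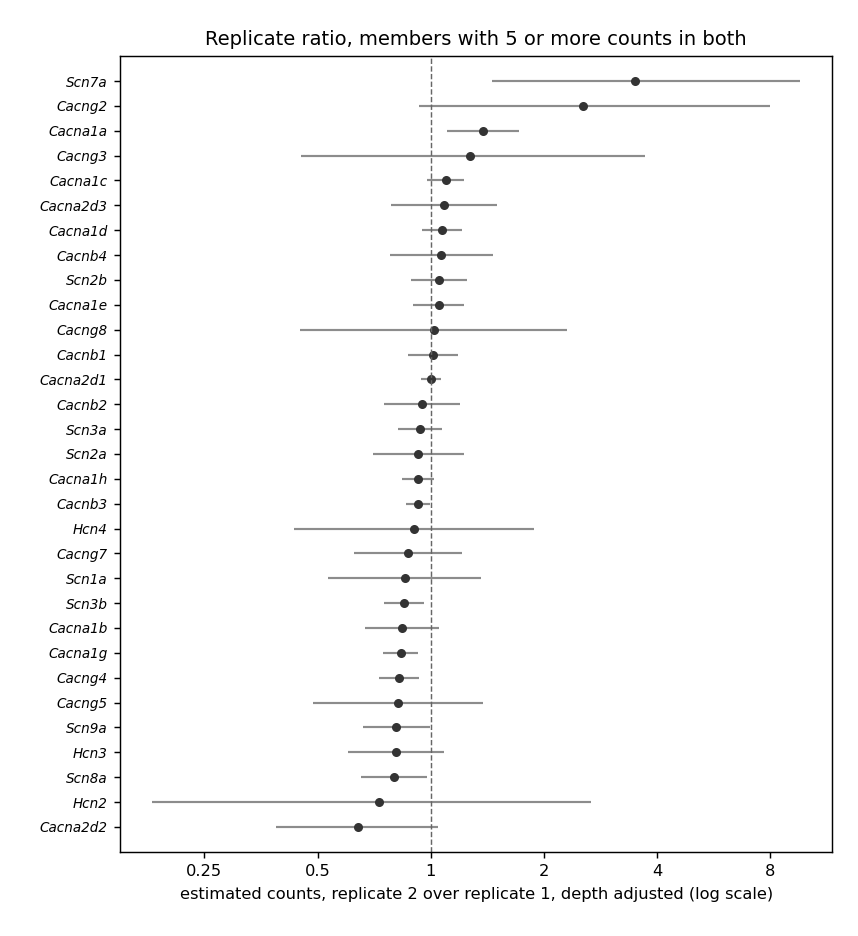
Depth-adjusted ratio of estimated counts, replicate 2 over replicate 1 (log axis), with its exact 95% counting interval for 31 of the 34 members with 5 or more counts in both libraries. Most intervals cross 1, and those of Scn7a and Cacna1a lie above it.

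Genes listed as acting with these channels were counted by the same limit, which 61.3% of protein-coding genes passed, and named by their mean TPM. Of 13 calcium channel regulators 9 were detected, among them the calmodulin gene Calm2 at 890 and 818 TPM. Of 18 genes of calcium release and store-operated entry 14 were detected, the highest by mean being the pump gene Atp2a2 at 37.9 and 40.6 TPM and the store sensor gene Stim2 at 16.7 and 17.2, though the store-entry channel gene Orai3 was above Stim2 in replicate 1, at 17.3 and 13.4. Both exceeded every alpha1 gene. Of 12 sodium channel partners 8 were detected, led by the anchoring protein gene Ank2 at 24.1 and 20.2 TPM and Fgf13, an intracellular modulator, at 22.7 and 20.6. Of 6 genes listed as Hcn partners 5 were found in the data and 3 were detected. The highest were the ubiquitin ligase gene Nedd4 at 596 and 525 TPM and Kctd3 at 29.8 and 28.6. Nedd4 is a different gene from Nedd4l, which was listed with the sodium channel partners and had 12.9 and 13.3 TPM. Whether Nedd4 acts on Hcn channels was not tested. Sodium leak channel genes were low, with 4 of 5 listed found in the data and 2 detected. Nalcn, the pore, had 1.60 and 1.09 TPM and its partner Fam155a 1.51 and 1.27. Of 14 other calcium-permeable channel genes 11 were detected, led by Trpm7 at 38.2 and 33.5 TPM and Piezo1 at 17.9 and 14.6. Of 13 genes for neuronal splicing and repression 11 were detected, led by Ptbp1 at 226 and 227 TPM and Mbnl1 at 105 and 109.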

How the data were processed

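The samples were 2 total RNA-seq libraries of mouse intestine at embryonic day 14.5, grouped and numbered by the labels. Per the notes deposited with the files, the build was mm10 and the annotation GENCODE M4, with 1 set of tables for each library. Which program made the tables, and whether it used strand, is not given in the sources used here. Reads of overlapping genes on opposite strands may not be separated. The authors deposited expected counts for genes and transcripts, which carry fractions where a read fits several features. The authors also deposited TPM, scaled over every feature of a table, spike-ins among them. FPKM values were deposited by the authors and used only for the shares of alpha1 types. The bounds of a 95% interval of each TPM, and a posterior mean, were deposited by the authors and taken here as scores, and such an interval need not contain the TPM. The percent of each transcript in its gene was deposited by the authors as well.

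Symbols, transcript types and sequences came from GENCODE M21 (GRCm38). Of 231 member transcripts 207 had the same length in it and 3 were not in it. Sums, shares and exact binomial intervals of count ratios were computed with Python 3.11.15, pandas 2.3.3 and scipy 1.17.1. Estimated counts in genes were 32938592 and 32371363, and the limit for 0 counts was taken as 3 counts. Such limits and count intervals cover counting error only, since amplified reads are not independent molecules. With 1 group there was no test between conditions. The difference rule was also run on simulated libraries with counting error only and with intervals computed from the counts. That setting lacks the deposited intervals and any spread between samples, so it cannot show how the rule performs on these libraries.

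Members were named by level: those with mean TPM of at least 5 with interval and counts, those from 1 to 5 with both values, those below 1 with both values where they form a pore, and the 2 highest genes of each other list. A few genes and sequences within these rules were left out of the text and figures and are not reported here. Members, rules and lists were chosen with earlier results of these data known. Alternatives were other detection limits, posterior means, rescaling over nuclear protein-coding genes, coding transcripts only, TMM factors from edgeR 4.0.16, DESeq2 1.42.0 size factors and spike-in scaling of replicate differences, another pseudocount, and leaving out each library. The full-length and fixed-length levels were added after the values were seen.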

Additional observations from a re-analysis of the deposited data

How the results depend on the processing

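The 2 libraries limit every SD here, and members below about 10 counts are known only to a few reads. The number of members detected was 17. It was 7 at a TPM of at least 5, 30 at an estimated count of at least 10, and 18 to 19 with each library left out in turn. By class, a limit of 0.5 TPM gave 1 N, 2 alpha2delta and 4 sodium alpha genes. A limit of 5 TPM gave 0 for L, P/Q, R, sodium alpha and Hcn and 1 each for gamma and sodium beta. At least 10 counts gave 1 N, 3 alpha2delta, 4 gamma, 6 sodium alpha and 3 Hcn genes. Posterior means gave 1 N gene and rescaling over nuclear protein-coding genes 2 alpha2delta genes. With a library left out, sodium alpha ranged from 2 to 4 genes, with 4 without replicate 2, where Scn2a and Scn9a pass. The full-length and the fixed-length level each gave 0 for P/Q, R and Hcn and 1 for sodium alpha. The L-type share of alpha1 TPM, 24.7%, was 30.8% with coding transcripts only, 32.4% full-length and 29.6% at fixed length. The share of P/Q, N and R together, 22.4%, was 24.7% with posterior means, 13.6% with coding transcripts only, 13.9% full-length and 17.1% at fixed length. The sum over all members, 105 TPM, was 113 with posterior means, 137 after rescaling, 86.6 with coding transcripts only, 82.8 full-length and 82.6 at fixed length. Of the class sums under the alternatives, 42 lay further from the main sum than its SD and 35 did not. The order of the lowest classes changed too. With posterior means N, at 1.725 TPM, was above R, at 1.695. Full-length P/Q, at 0.51, was below R, at 0.765, and N, at 0.72. The percent of member TPM in protein-coding transcripts, 82.9%, was 90.3% without retained-intron and nonsense-mediated decay transcripts and 79.2% full-length. The shifts with coding transcripts only, on the full-length level and without retained-intron and nonsense-mediated decay transcripts follow from which transcripts enter each sum. At fixed length the divisor of the counts changed, and rescaling multiplied every TPM of a library by the same factor. The cause of the shifts with posterior means was not tested. The count of members that differed between libraries was 0 of 7 and stayed 0 under each alternative run. TMM factors raised replicate 2 by 0.05 in log2 and DESeq2 size factors by 0.04, while spike-in scaling lowered it by 0.10. No paired analysis was possible because there is 1 group.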
